A study of Pinus pinaster with 66 samples.

Results

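The needles of the current year (Whorl 0) of maritime pine (Pinus pinaster) were followed over the step from the May to the July harvest. The May and the July group hold 3 arrays each, chosen by their titles, which makes 6 of the 66 arrays of the series. Of the 8208 spots of the array, 7313 were measured on 2 or 3 arrays in each of the months and were tested. The same 6 trees, 20 to 25 years old and growing in one stand at an altitude of 1245 m, were sampled at every harvest, and the July harvest came 58 days after that of May 2012. Their needles were pooled 2 trees at a time, so that each group of month and whorl holds 3 arrays. The step was set against the same months in Whorls 1, 2 and 3 of those trees, the needles grown in the years before, with 9 arrays in each month. The labels name no treatment, and all groups share the trees and the site and differ in harvest month and needle age. The comparison asks how far the step of the expanding needles was shared by needles that had already expanded.

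Pine needles form a new set each spring and are kept for several years, so that a tree carries young and old needles at once. A young needle first depends on carbon from older needles, and while it expands it lays down cell wall, membranes and chloroplasts. Flavonoids, made from the phenylpropanoid pathway through chalcone synthase, are known as screens against ultraviolet light and often accumulate in young leaves. Membrane lipids are remodelled with temperature, and desaturases, which put double bonds into their acyl chains, are part of that remodelling. Evergreen conifers lose cold hardiness in spring and regain it in autumn.

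Each value is the logarithm of the ratio of a needle sample to a common pool of needle RNA from January, normalized by the authors. The base of the logarithm was taken as 2, so that a difference of 1 was read as a 2-fold change. Positive values were taken to mean that a transcript was more abundant than in January. The 3 May arrays of Whorl 0 had values for 8025 to 8076 spots and the 3 July arrays for 7161 to 7369, against 7723 to 8015 and 6519 to 7665 on the arrays of Whorls 1 to 3. The spread of values over spots was wider in Whorl 0, with an SD of 0.426 to 0.443 in May and 0.407 to 0.423 in July, than in the older needles of both months (0.283 to 0.353). Replicates of Whorl 0 correlated across spots at r = 0.965 to 0.972 in May and 0.885 to 0.927 in July. No 2 of them shared a value at any spot. No spot is described in the sources as a marker of a cell type, so that the labelled tissue was not checked against markers. Only the 43 spots that the study describes carry a gene description here, and the others are given by spot name or as counts.

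Between May and July, 1904 of the 7313 spots (26%) passed in Whorl 0 at an adjusted p under 0.05 in limma, and 1139 of them (15.6% of the spots tested) were higher in July and 765 (10.5%) lower. Of the spots that passed, 188 differed by more than 1, and 154 of these were higher in July and 34 lower. In whole needles, fewer cells of a type and less RNA per cell cannot be told apart. In the single older whorls, with the same 3 arrays a side, 1122 spots passed in Whorl 1 (15.1% of those tested), 1186 in Whorl 2 (16.3%) and 1334 in Whorl 3 (18.2%), and 27, 27 and 47 of them differed by more than 1. The median size of the step was near in all of them (0.123 in Whorl 0 and 0.110, 0.113 and 0.112 in Whorls 1 to 3), and the 99th percentile of the size was 1.36 in Whorl 0 and 0.816, 0.746 and 0.908 in Whorls 1 to 3. The estimates in Whorl 0 ran from -2.42 to 2.64. Without 1 of the 6 arrays at a time, between 1452 and 1678 spots passed in Whorl 0. Without replicate 2 of every group 1124 passed in Whorl 0 and 229, 256 and 475 in Whorls 1 to 3. The order of the whorls by count did not hold under the other scalings. With quantile normalization of the arrays 930 spots passed in Whorl 0 against 874, 893 and 1054 in Whorls 1 to 3, and with the arrays scaled to the same median absolute value Whorl 0 had the fewest, 1038 against 1207, 1232 and 1353. The 99th percentile of the size was then 0.932 in Whorl 0 against 0.755, 0.697 and 0.843 with quantile normalization, and 1.06 against 0.849, 0.765 and 0.933 with scaled arrays.

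**Figure D1:**
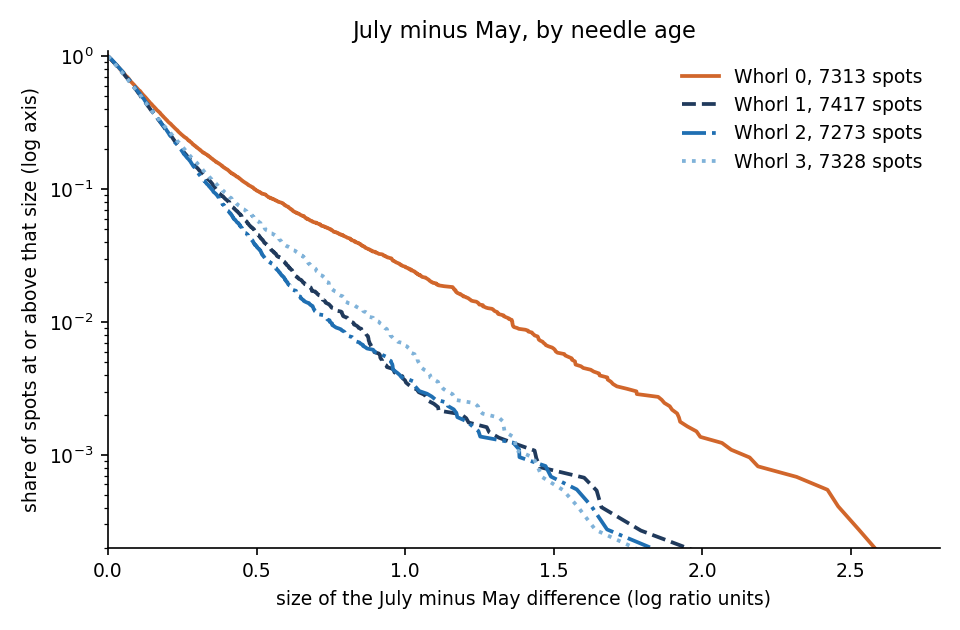
Share of spots (vertical axis, logarithmic) whose July minus May difference reached a given size (horizontal axis, log ratio units), with 1 line for each whorl. The lines run together at small sizes, and that of Whorl 0 lies above the others at large sizes in the values as deposited, with a 99th percentile of 1.36 against 0.746 to 0.908.

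Of the 43 spots that the study describes, 41 were tested in Whorl 0, and 8 rose, 5 fell and 28 did not pass. Their median estimate was -0.04, beside -6.79e-05 over all spots tested, and the 13 that passed are to be read against the 26% of all spots. The list of spots was drawn up by the study from these arrays. Of those that rose, Q17J10, Q11E4, Q7G9, Q1K1, Q16E20 and Q17N23 are among its genes most correlated with temperature. Of those that fell, Q11J18, Q15E22, Q17K21 and Q2I24 are among its genes most correlated with rain. A direction by season is therefore part of what chose these spots. A lack of overlap between the May and July arrays is given below as a description of the values. It was also seen at named spots that did not pass, such as Q15K3, Q6B3, Q22K3 and Q13B15, and its share over all spots is not given here.

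The spots for membrane lipids and cold fell together: all 3 of the list passed, with a median of -0.50. The fatty acid/sphingolipid desaturase (Q11J18) had values of -0.14, -0.12 and -0.18 on the May arrays of Whorl 0 and of -1.60, -1.41 and -1.51 on those of July. All July arrays lay far below all May arrays. Within each month the older needles were lower than the new ones, from -2.08 to -1.07 in May and from -2.56 to -2.10 in July. The desaturase fell by 1.36 on the log2 scale, with an SE of 0.16 and an adjusted p of 5.1e-09 in limma. Aminoalcoholphosphotransferase 1 (Q15E22) adds the head group in the making of phosphatidylcholine and phosphatidylethanolamine. The spot stood at -0.38, -0.40 and -0.34 in May and at -0.90, -0.83 and -0.90 in July. It fell by 0.50 (SE 0.09, adjusted p = 2.2e-05), and the months did not overlap. The cold acclimation protein (Q12L10), named for its association with cold hardening, had 0.45, 0.29 and 0.44 in May and -0.07, -0.20 and 0.06 in July, again without overlap, and fell by 0.46 (SE 0.09, adjusted p = 9.9e-05). These 3 spots passed under all 19 alternatives run for the step of Whorl 0.

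Of the list for central carbon, 1 spot fell and 1 rose. Alcohol dehydrogenase (Q17K21), which interconverts alcohols and aldehydes, had -0.51, -0.65 and -0.58 in May and -0.91, -1.06 and -0.93 in July. The months did not overlap, and it fell by 0.39 (SE 0.13, adjusted p = 0.022). Its adjusted p ran from 0.0021 to 0.19 over the 19 alternatives, and it no longer passed without May array 1 (0.0806), May array 3 (0.056) or July array 2 (0.0889), without replicate 1 (0.102) or 2 (0.178) of every group, or with the arrays scaled to the same median absolute value (0.186). Triose-phosphate isomerase (Q7G9), which interconverts the triose phosphates in glycolysis and the Calvin cycle, had 0.54, 0.51 and 0.58 in May and 0.78, 0.87 and 1.06 in July. All July arrays were higher, and it rose by 0.36 (SE 0.11, adjusted p = 0.014). Over the alternatives its adjusted p ran from 0.0016 to 0.23, and the call was lost without July array 3 (0.109), without replicate 2 of every group (0.153) and under both other scalings (0.23 with quantile normalization, 0.0888 with scaled arrays).

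The spots that rose came from several of the lists by function used here. Ketol-acid reductoisomerase (Q17J10), an enzyme of branched-chain amino acid synthesis, had 0.14, -0.03 and -0.02 on the May arrays and 0.47, 0.39 and 0.45 on those of July. It rose by 0.40 (SE 0.09, adjusted p = 0.00028) with no overlap between the months, and it passed under all 19 alternatives. The other 2 spots of the amino acid and one-carbon list did not pass: serine hydroxymethyltransferase (Q1E13) had an estimate of -0.18 (SE 0.28) and methylenetetrahydrofolate dehydrogenase (Q10D23) of -0.02 (SE 0.13).

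Of the 3 spots for translation, elongation factor 1-alpha (Q11E4), which delivers charged tRNA during protein synthesis, rose. It had 0.34, 0.33 and 0.18 in May and 0.71, 0.79 and 0.94 in July, a rise of 0.53 (SE 0.16, adjusted p = 0.01) with all July arrays above all May arrays. The adjusted p ran from 0.0012 to 0.29 over the alternatives. It passed neither without May array 3 (0.0526) or July array 3 (0.0585), nor without replicate 2 (0.0863) or 3 (0.0824) of every group, nor with quantile normalization (0.286) or scaled arrays (0.0778). Initiation factor 4a (Q2A8) and the 40S ribosomal protein (Q17O7) had estimates of 0.05 and -0.03 and did not pass. For elongation factor 1-alpha, the step in the older needles was 0.68 in Whorl 1 (adjusted p = 0.0023 in limma), 0.30 in Whorl 2 and 0.20 in Whorl 3.

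Both spots for the cell wall had positive estimates, and 1 passed. The pectin methylesterase-like protein (Q17N23), of a family that removes methyl groups from wall pectin, had 0.26, 0.20 and 0.21 in May and 0.86, 0.50 and 0.45 in July. The July arrays were all higher, the first of them most, and the spot rose by 0.39 (SE 0.09, adjusted p = 0.0015). Without July array 1 the rise was 0.26 with an adjusted p of 0.0542, and with quantile normalization the adjusted p was 0.0565, in a range from 0.0007 to 0.057 over the alternatives. UDP-arabinose mutase (Q6B3), which supplies arabinofuranose for wall polysaccharides, had 0.73, 0.61 and 0.70 in May and 0.94, 0.86 and 0.81 in July, an estimate of 0.19 (SE 0.11, adjusted p = 0.23) that did not pass. In Whorl 1 both rose, Q17N23 by 0.37 (adjusted p = 0.0053 in limma) and Q6B3 by 0.51 (0.0013). Their estimates were 0.02 and 0.03 in Whorl 2 and 0.02 and 0.05 in Whorl 3.

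Of the 6 regulators tested, an R2R3-Myb (Q11F13), a member of a large family of plant Myb transcription factors, rose. Its values were 0.49, 0.37 and 0.50 in May and 0.77, 0.80 and 0.69 in July, a rise of 0.30 (SE 0.08, adjusted p = 0.0039), and every July array was above every May array. The call was lost without replicate 2 of every group (0.108), with quantile normalization (0.289) and with scaled arrays (0.063), and the adjusted p ran from 0.0021 to 0.29. The other regulators did not pass. Their estimates were 0.16 for the other R2R3-Myb (Q16P17), -0.24 for Myb5 (Q7N23), -0.11 for the CRK1 protein (Q7F2), and -0.24 and -0.11 for the auxin-responsive proteins Q5C1 and Q1J15. The median over the list was -0.11.

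The 3'-5' exonuclease (Q16E20) of the list of proteases and nuclease had 0.29, 0.29 and 0.28 in May and 0.50, 0.55 and 0.61 in July. It rose by 0.26 (SE 0.07, adjusted p = 0.0061) without overlap, and the call was lost without replicate 3 of every group (0.135), with quantile normalization (0.149) and with scaled arrays (0.0779), in a range from 0.0031 to 0.15. The exonuclease rose in the older needles too, by 0.34 in the mean of Whorls 1 to 3 (adjusted p = 3.1e-08 in limma). In Whorls 1, 2 and 3 alone it rose by 0.48, 0.30 and 0.22 (adjusted p = 1.1e-05, 0.0037 and 0.029). Its difference between the steps, -0.07, did not pass (adjusted p = 0.64). The subtilase (Q14O21), a serine protease, had an estimate of 0.08 and did not pass.

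The remaining spots that passed carry no gene name. Q13C16 had 0.74, 0.58 and 0.64 in May and 1.88, 1.63 and 1.51 in July and rose by 1.02 (SE 0.21, adjusted p = 0.00071), the largest rise among the 41 named spots tested. With quantile normalization its adjusted p was 0.0867, in a range from 0.00019 to 0.087. Q1K1, described as an unknown protein, rose by 0.36 (SE 0.14, adjusted p = 0.046) from 0.52, 0.52 and 0.57 to 0.68, 0.89 and 1.11, and Q2I24 fell by 0.44 (SE 0.10, adjusted p = 0.00081) from -0.05, -0.01 and 0.06 to -0.44, -0.34 and -0.56. In all 3 the months did not overlap, and only Q2I24 passed under all 19 alternatives. Q1K1 was lost in 9 of them, among these the leaving out of May array 1 (0.103), 2 (0.108) or 3 (0.0787), of July array 2 (0.0871) or 3 (0.273), and of replicate 2 (0.281) or 3 (0.122) of every group, with a range from 0.0027 to 0.35.

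**Figure D2:**
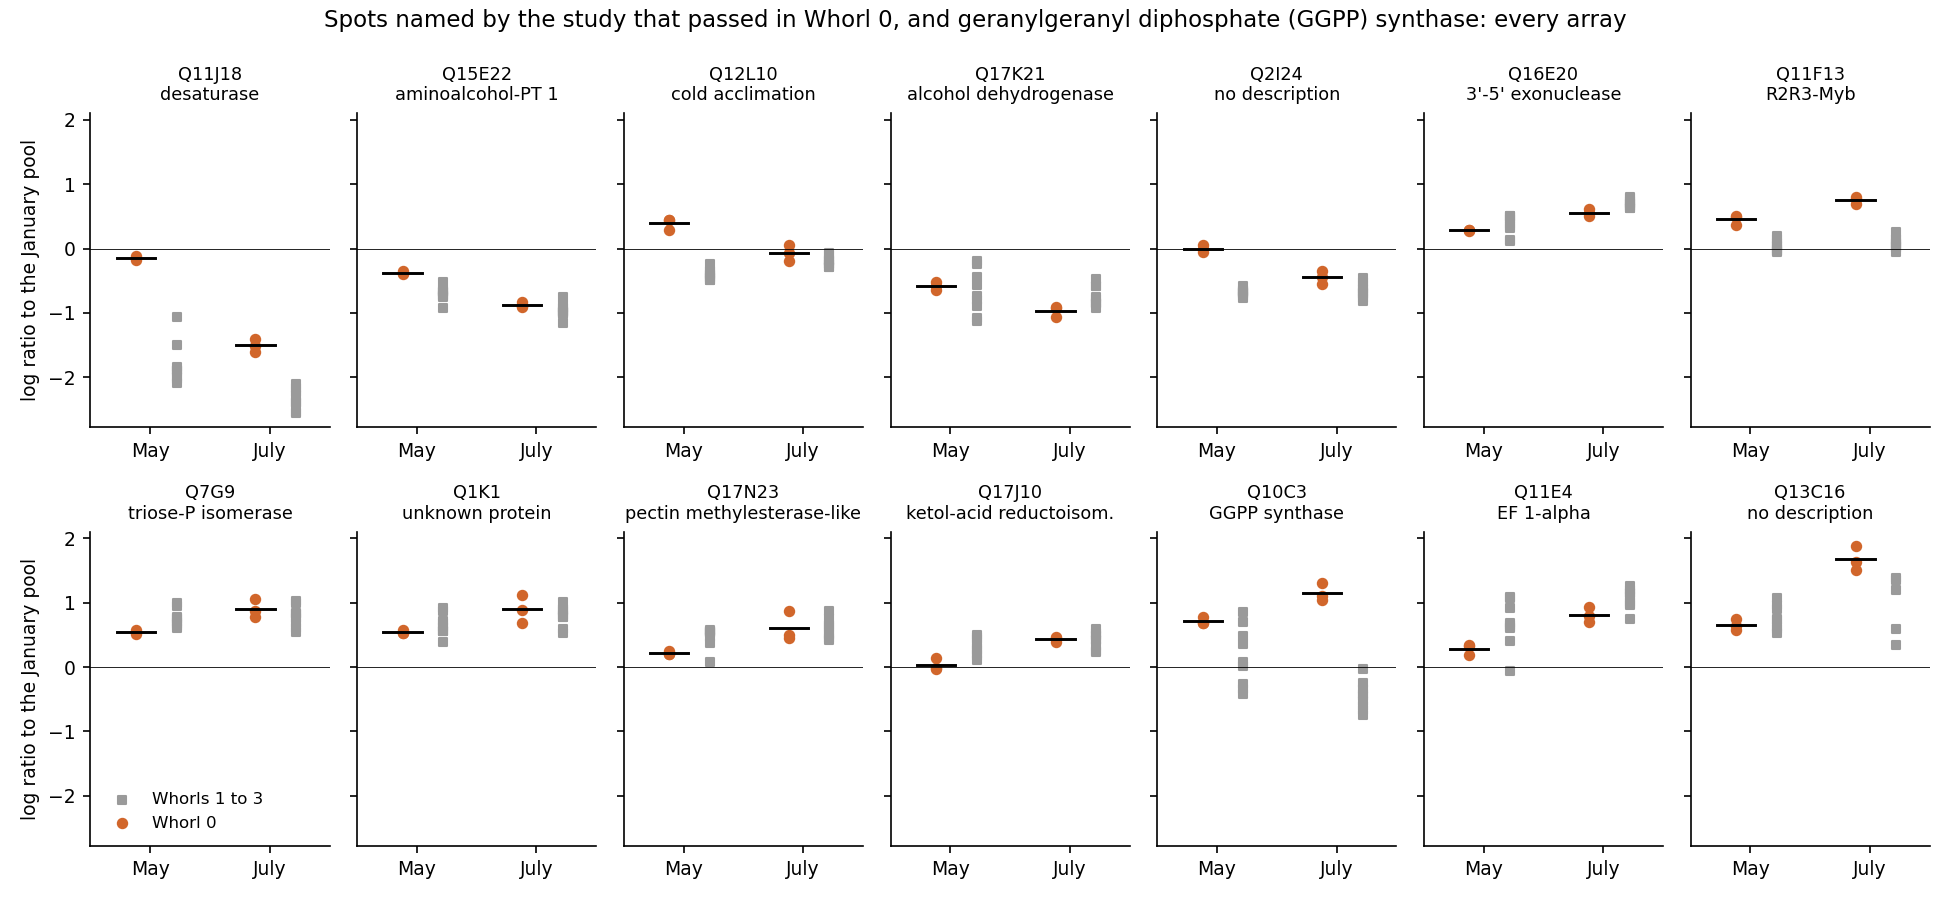
Log ratio to the January pool (vertical axis) on every May and July array for the 13 spots named by the study that passed in Whorl 0 and for geranylgeranyl diphosphate synthase, with Whorl 0 as circles, their mean as a bar, and Whorls 1 to 3 as squares. The desaturase Q11J18 moved furthest, from between -0.18 and -0.12 in May to between -1.60 and -1.41 in July. The May and July arrays of Whorl 0 do not overlap in these panels, but 13 of the spots are shown because they passed. Several named spots that did not pass had no overlap either, and the share over all spots is not given.

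None of the 5 flavonoid enzymes passed in Whorl 0, and their estimates ran from -0.34 to 0.18 with a median of -0.05. Chalcone synthase, the entry enzyme of the pathway, had 0.55, 0.38 and 0.48 in May and 0.62, 0.79 and 0.55 in July at spot Q15M17, with an estimate of 0.18 and a 95% interval from -0.13 to 0.49. At its other spot, Q18F13, it had 0.58, 0.63 and 0.63 in May and 0.54, 0.73 and 0.51 in July, with an estimate of -0.02 and an interval from -0.45 to 0.42. The May and July arrays overlapped at both spots. Chalcone isomerase (Q15K3), which closes the ring of the flavanone, had 1.03, 0.80 and 0.95 in May and 0.59, 0.78 and 0.38 in July. Its months did not overlap, and its estimate of -0.34 (SE 0.27, adjusted p = 0.4) did not pass, with an interval from -0.89 to 0.21. Flavanone 3-hydroxylase (Q15G15), which leads on to dihydroflavonols, had 0.89, 0.79 and 0.78 in May and 0.82, 0.83 and 0.64 in July. Flavonoid-3',5'-hydroxylase (Q21C21), which adds hydroxyl groups to the B ring, had 1.23, 1.25 and 1.43 in May and 1.16, 1.20 and 1.19 in July. All 6 arrays of the young needles were above every array of the older needles of the same month at each of the 5 spots, the highest older values being -0.02, -0.12, -0.49, -0.12 and -0.13 in May and -0.15, -0.34, -0.30, -0.09 and -0.19 in July. For Q21C21 the older needles had 5 values in May and 7 in July. The study lists these 5 spots among the genes most correlated with Whorl on these same arrays. Their place above the older needles is therefore part of what chose them and no separate result.

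Of the other spots that the study lists among these enzymes, the armadillo repeat protein (Q17L11), the COP9 complex spot (Q13K2) and the protein-binding protein (Q16H14) had estimates of -0.01, -0.02 and -0.07 and did not pass, and the 40S ribosomal protein (Q17O7) and geranylgeranyl diphosphate synthase (Q10C3) are given with their own lists. The lists for chaperones and for transporters had no spot that passed either. Endoplasmin (Q14J11), the heat shock protein of the endoplasmic reticulum, had -0.01, 0.09 and 0.06 in May and -0.44, -0.08 and -0.24 in July, an estimate of -0.30 (adjusted p = 0.058), and without July array 2 it was -0.39 and passed at 0.027, as it did with a random replicate block (0.0469). The heat shock protein 70 (Q17J7) had an estimate of -0.04. The hexose transporter (Q13B15) had -0.33, -0.26 and -0.34 in May and -0.67, -0.43 and -0.40 in July and an estimate of -0.19 (adjusted p = 0.056), which passed at 0.0478 with the replicate number as a block, at 0.0498 without July array 2 and at 0.0333 without July array 3. The mitochondrial dicarboxylate carriers (Q11D3 and Q12A19) and the clathrin light chain (Q22K3) had estimates of -0.12, -0.14 and 0.17.

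Neither of the isoprenoid enzymes passed in Whorl 0. Geranylgeranyl diphosphate synthase (Q10C3), which makes the precursor of diterpenes, carotenoids and gibberellins, had 0.68, 0.69 and 0.78 in May and 1.04, 1.11 and 1.31 in July. All July arrays were higher, and the estimate of 0.44 (SE 0.17) had an adjusted p of 0.059, and of 0.0321 with the replicate number as a block. Hydroxymethylglutaryl synthase (Q19M11), of the mevalonate pathway, had -0.53, -0.54 and -0.49 in May and -0.78, -0.87 and -0.87 in July. All July arrays were lower, and its estimate of -0.32 (SE 0.15) had an adjusted p of 0.11, and of 0.0476 with the block.

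By the size of the estimate, the spots at the ends of the step carry no description. Q8C21 had -2.58, -2.87 and -2.70 in May and -0.15, 0.24 and -0.31 in July, and rose by 2.64 (SE 0.21, adjusted p = 1.8e-13). Q1K19 had -1.97, -2.34 and -2.20 in May and 0.48, 0.45 and 0.15 in July, and rose by 2.53 (SE 0.19, adjusted p = 2.7e-14). In May both lay below the January pool in the new needles and above it in the older ones, which had 0.01 to 0.90 for Q8C21 and 0.37 to 0.97 for Q1K19, and in July the new needles lay within the range of the older ones at both spots. Q2F2 had -0.75, -0.42 and -0.17 in May and -3.14, -2.39 and -3.07 in July, and fell by 2.42 (SE 0.42, adjusted p = 1.4e-05). Q8C5 had -2.34, -2.12 and -2.03 in May and -4.03, -4.01 and -4.20 in July, and fell by 1.92 (SE 0.19, adjusted p = 5.5e-11).

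The step of Whorl 0 had little relation across spots to the mean step of the older needles, which differed among themselves. When the step was averaged over Whorls 1 to 3, 2543 of 7109 spots (35.8%) passed, 1380 (19.4%) higher in July and 1163 (16.4%) lower, from 18 arrays in place of 6. These 18 arrays come from the same 6 trees. With the pool within a month as a random block, 1807 (25.4%) passed. Across the 7031 spots tested in all 8 groups, the step of Whorl 0 correlated at r = 0.04 with that of Whorls 1 to 3. These spots share the arrays and the January pool, and the value is a description. Pearson's r was 0.33 with the step of Whorl 1, 0.01 with Whorl 2 and -0.22 with Whorl 3, and the rank correlation was 0.36, 0.08 and -0.07. Between single replicates Pearson's r was 0.851 to 0.866 within Whorl 0, 0.115 to 0.478 with Whorl 1, -0.267 to 0.155 with Whorl 2 and -0.378 to -0.0867 with Whorl 3. By both measures over the means, the step of Whorl 1 was nearest to that of the new needles and the step of Whorl 3 furthest. Among the older whorls, Pearson's r was 0.49 for Whorls 1 and 2, 0.30 for Whorls 1 and 3 and 0.81 for Whorls 2 and 3. The rank correlation was 0.36, 0.24 and 0.78. By rank, the step of Whorl 1 was as close to that of Whorl 0 as to that of Whorl 2.

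The difference between the steps, that of Whorl 0 minus that of Whorls 1 to 3, passed at 1593 of the 7031 spots (22.7%), with a larger July value relative to May in Whorl 0 at 897 (12.8%) and a smaller one at 696 (9.9%). It exceeded 1 in size at 245, and at 214 of these it was positive. Against a single older whorl, 860 of 7198 spots (11.9%) differed from Whorl 1, 1372 of 7105 (19.3%) from Whorl 2 and 1605 of 7141 (22.5%) from Whorl 3, comparisons added after the data were seen. Without replicate 2 of every group, 912 spots differed from the mean of Whorls 1 to 3.

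Of the 7031 spots that could be compared, 1850 (26.3%) passed in Whorl 0 and 2527 (35.9%) in Whorls 1 to 3. Both steps passed at 899 (12.8%), with 533 (7.58%) in the same direction and 366 (5.21%) in opposite directions. Of the latter, 253 rose in the new needles and fell in the older ones and 113 did the reverse. A further 661 (9.4%) passed in Whorl 0 and not in Whorls 1 to 3 while the difference itself passed, 370 of them higher in July and 291 lower. At 721 spots that passed in Whorl 0 the difference did not pass, so that no separate step of the new needles was shown there. At 464 spots the difference passed and the step of Whorl 0 did not, and at 386 of these it was the older needles that passed. The opposite class held 241, 196 or 194 spots without replicate 1, 2 or 3 of every group, and the same-direction class 344, 250 or 407.

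**Figure D3:**
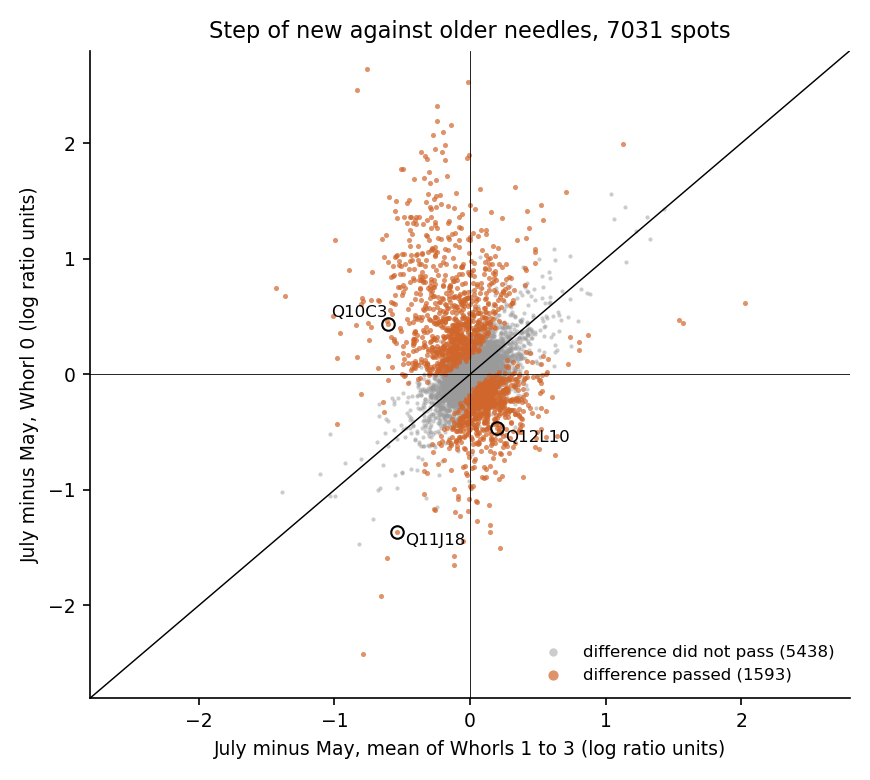
July minus May difference of Whorl 0 (vertical axis) against that of the mean of Whorls 1 to 3 (horizontal axis), both in log ratio units, for 7031 spots, with the diagonal of equal steps. The 1593 spots whose steps differed are coloured, and most of those far from 0 lie above the diagonal. The desaturase Q11J18 fell in both, the cold acclimation protein Q12L10 fell in Whorl 0 and rose in the older needles, and geranylgeranyl diphosphate synthase Q10C3 was higher in July in Whorl 0 and fell in the older needles.

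Of the 37 spots named by the study that were tested for the difference, 7 passed, to be read against the 22.7% of all 7031 spots tested. The median over the 37 was -0.02, beside -0.01 over all spots. Geranylgeranyl diphosphate synthase (Q10C3) parted furthest. On the 9 older arrays its median was 0.07 in May, in a range from -0.42 to 0.85, and -0.44 in July, from -0.75 to -0.03, and it fell there by 0.61 (SE 0.10, adjusted p = 5.7e-06). The 3 arrays of the new needles were within the older range in May and above it in July. The study lists this spot, too, among the genes most correlated with Whorl on these arrays. Its place above the older needles is therefore part of what chose it. The steps differed by 1.05 (SE 0.20, adjusted p = 7.5e-05), and the call held under all 21 alternatives.

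The cold acclimation protein (Q12L10) moved in opposite directions in new and older needles. While it fell in Whorl 0, the older arrays went from a median of -0.42 in May to -0.20 in July, a rise of 0.20 (SE 0.05, adjusted p = 0.0024), and the difference was -0.67 (SE 0.11, adjusted p = 2.7e-06). It held under all 21 alternatives. The desaturase (Q11J18) fell in both, by 1.36 in Whorl 0 and by 0.54 (SE 0.09) in the older needles, and the difference of -0.82 (SE 0.19) had an adjusted p of 0.00077. Against Whorl 1 alone that difference was -0.42 with an adjusted p of 0.278, the only one of the 21 alternatives in which it did not pass. Aminoalcoholphosphotransferase 1 (Q15E22) fell by 0.26 in the older needles too, and its difference of -0.24 did not pass (adjusted p = 0.095), but passed with a random replicate block (0.0376) and with quantile normalization (0.0395). The spot Q2I24, with no description, differed by -0.48 (SE 0.12, adjusted p = 0.0019) and held under all 21.

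The other 3 differences among the named spots were smaller and were lost when single arrays were left out. The R2R3-Myb Q11F13 rose in Whorl 0 with an estimate of 0.04 in the older needles, and the difference was 0.26 (SE 0.09, adjusted p = 0.033). The call was lost in 9 of 21 alternatives, with adjusted p from 0.015 to 0.46, among them without May array 2 (0.134), July array 1 (0.0746) or July array 2 (0.0949) of Whorl 0 and without replicate 1 (0.146) or 2 (0.323) of every group. The R2R3-Myb Q16P17 passed in neither step, with 0.01, -0.02 and -0.01 in May and 0.06, 0.27 and 0.12 in July in Whorl 0. Its difference of 0.25 (SE 0.09, adjusted p = 0.04) was lost in 12 of 21 alternatives, with adjusted p from 0.0069 to 0.62, among them without any one of the May arrays of Whorl 0 (0.0618, 0.0878 and 0.0765), without July array 2 (0.185) or 3 (0.0574), and without replicate 2 (0.459) or 3 (0.189) of every group.

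Ketol-acid reductoisomerase (Q17J10) differed by 0.30 (SE 0.10, adjusted p = 0.022), with an estimate of 0.10 in the older needles. In the single older whorls its step was 0.35 in Whorl 1 (adjusted p = 0.0035 in limma), -0.03 in Whorl 2 and -0.01 in Whorl 3. Against Whorl 1 alone the difference was 0.05 (adjusted p = 0.879). The call was lost in 9 of 21 alternatives, with adjusted p from 0.0079 to 0.88, among them without May array 2 (0.0785) or 3 (0.0718), without July array 1 (0.0602) or 3 (0.0512), and without replicate 2 (0.104) or 3 (0.221) of every group. Triose-phosphate isomerase (Q7G9) differed by 0.33 (adjusted p = 0.062) and passed with the replicate number as a fixed (0.0142) or random block (0.021) and without July array 1 (0.0428). At the ends of the difference stood spots with no description, Q8C21 at 3.41 and Q7H1 at 3.29 above, and Q11L4 at -1.73 and Q2F2 at -1.63 below. Q7H1 had -2.03, -2.22 and -1.63 in May and 0.30, 0.50 and 0.70 in July in Whorl 0, against 0.52 to 2.05 and 0.15 to 1.30 on the older arrays, while Q11L4 had -0.50, -0.71 and -0.51 in May and -1.90, -2.46 and -1.88 in July, against -1.69 to 0.02 and -1.33 to -0.04. The difference of Q2F2 had an adjusted p of 0.011, and was lost without replicate 2 (0.0614) or 3 (0.112) of every group, in a range from 0.00081 to 0.21 over the alternatives.

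The new needles stood furthest from the older ones in May. Over the 6052 spots with a value on every array of May, July, September and November, the median size of the difference of an array of Whorl 0 from the mean of Whorls 1 to 3 was 0.176, 0.177 and 0.183 in May and 0.125, 0.155 and 0.128 in July. All May arrays were above all July arrays (0.179 ± 0.00372 and 0.136 ± 0.0169, mean ± SD, n = 3), and the exact permutation test gave p = 0.1, two-sided, the smallest that 3 against 3 arrays allow. The later harvests were lower again, at 0.0881 ± 0.0221 in September and 0.0856 ± 0.0091 in November. Single arrays of the older whorls, set against the other 2 older whorls, had 0.0688 to 0.109 in May and 0.0635 to 0.104 in July, with 0.0602 to 0.0875 at the September harvest and 0.0651 to 0.0886 at the last, so that the new needles were above this range in May and July and reached into it in September and November. Whole arrays of Whorl 0 correlated with the older arrays of the same month at -0.0777 to 0.314 in May, 0.358 to 0.629 in July, 0.581 to 0.793 in September and 0.211 to 0.746 in November. The medians were 0.017, 0.546, 0.675 and 0.515, lowest in May as for the distance, but with November below July.

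**Figure D4:**
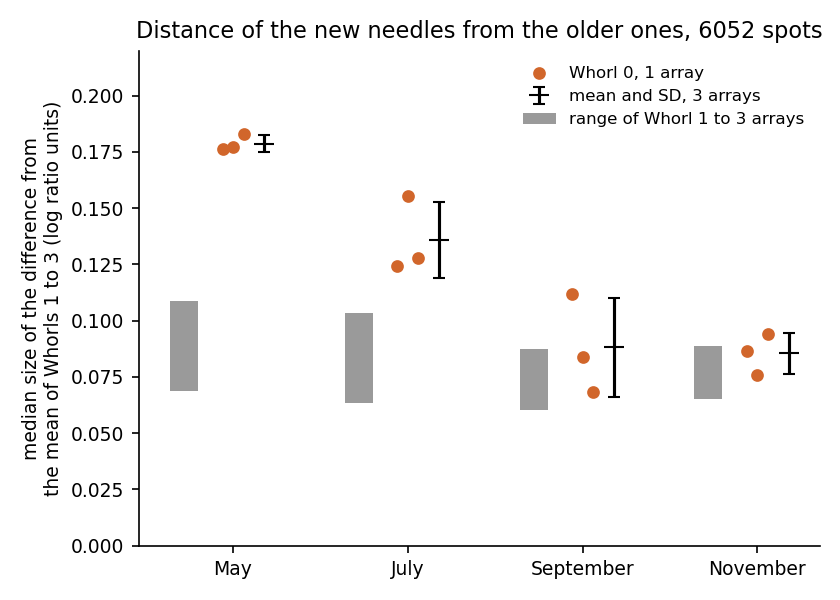
Median size over 6052 spots of the difference between an array of Whorl 0 and the mean of Whorls 1 to 3 of the same month (log ratio units), with 1 circle for each array, the mean and SD of 3 arrays beside them, and grey bars for the range of single arrays of Whorls 1 to 3 against the other 2 older whorls. The circles lie at 0.176 to 0.183 in May and 0.125 to 0.155 in July, above the grey bars, and reach into them in September and November.

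The spots that rose in Whorl 0 lay mostly below the older needles in May, 949 of the 1134 with a value (83.7%), beside 53.7% of all spots tested. Among those that rose, the median difference between Whorl 0 and the older needles was -0.37 in May and -0.06 in July. Among the 154 that rose by more than 1, it was -1.56 in May (153 spots with a value), -0.18 in July (150), and 0.15 and -0.22 in September and November (149 each). Among the 765 that fell, the median difference was 0.42 in May (752 spots), 0.07 in July (745), and 0.03 in September (737) and in November (745). Over all spots tested the median lay between -0.04 and -0.01 in the 4 months. The values of May and July share arrays with the step that chose the spots, and those of September and November come from other arrays. In the older needles, the 150 of these 154 spots that were tested for the difference had a median step of -0.24, beside 0.00413 over all spots.

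For the desaturase (Q11J18), Whorl 0 was above the older needles by 1.65 ± 0.13 (estimate ± SE) in May and 0.83 ± 0.13 in July, and the later values were 0.23 ± 0.13 (September) and -0.04 ± 0.14 (November). For the cold acclimation protein (Q12L10) the differences were 0.80 ± 0.08, 0.13 ± 0.07, 0.09 ± 0.08 and -0.01 ± 0.08, and they were largest in May in both. By September, the desaturase in Whorl 0 was at -0.80, -0.95 and -0.91, and in November at 0.54, 0.36 and 1.04.

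Ketol-acid reductoisomerase (Q17J10) started below the older needles, at -0.28 ± 0.07 in May, and stood at 0.02 ± 0.07 in July. The pectin methylesterase-like spot (Q17N23) went from -0.25 ± 0.08 to 0.00 ± 0.08, and elongation factor 1-alpha (Q11E4) from -0.38 ± 0.13 to -0.25 ± 0.13. In contrast, the R2R3-Myb Q11F13 was above the older needles in both months, by 0.41 ± 0.06 in May and 0.67 ± 0.06 in July, and by 0.19 ± 0.06 in September and 0.11 ± 0.07 in November. Geranylgeranyl diphosphate synthase (Q10C3) was above them by 0.55 ± 0.14, 1.60 ± 0.14, 1.15 ± 0.14 and 0.98 ± 0.15 in the 4 months, most in July. That it lay above them was part of its choice by correlation with Whorl, and is no separate result.

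At the 4 flavonoid spots where the difference between the steps was tested, it did not pass. The study listed these spots by their correlation with Whorl on these arrays, so that a distance from the older needles was given by that choice. Chalcone synthase was above the older needles by 0.82 ± 0.13 in May and 0.96 ± 0.13 in July at spot Q15M17 and by 1.34 ± 0.18 and 1.16 ± 0.18 at Q18F13, chalcone isomerase (Q15K3) by 1.70 ± 0.22 and 1.19 ± 0.22, and flavanone 3-hydroxylase (Q15G15) by 1.24 ± 0.17 and 1.09 ± 0.17. In November the differences were 1.32 ± 0.13, 1.94 ± 0.18, 2.22 ± 0.23 and 1.74 ± 0.17, above those of May at all 4 spots (the change over these later months was not tested). The differences between the steps were 0.14 at Q15M17 (95% interval -0.22 to 0.50), -0.18 at Q18F13 (-0.68 to 0.32), -0.50 for chalcone isomerase (-1.14 to 0.13) and -0.15 for flavanone 3-hydroxylase (-0.63 to 0.32), which leaves room for changes of that size. That of chalcone isomerase had an adjusted p of 0.28, and of 0.031 with only the 24 arrays of May and July, and its step in Whorl 0 passed at 0.0395 with only the 6 arrays of that whorl.

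**Figure D5:**
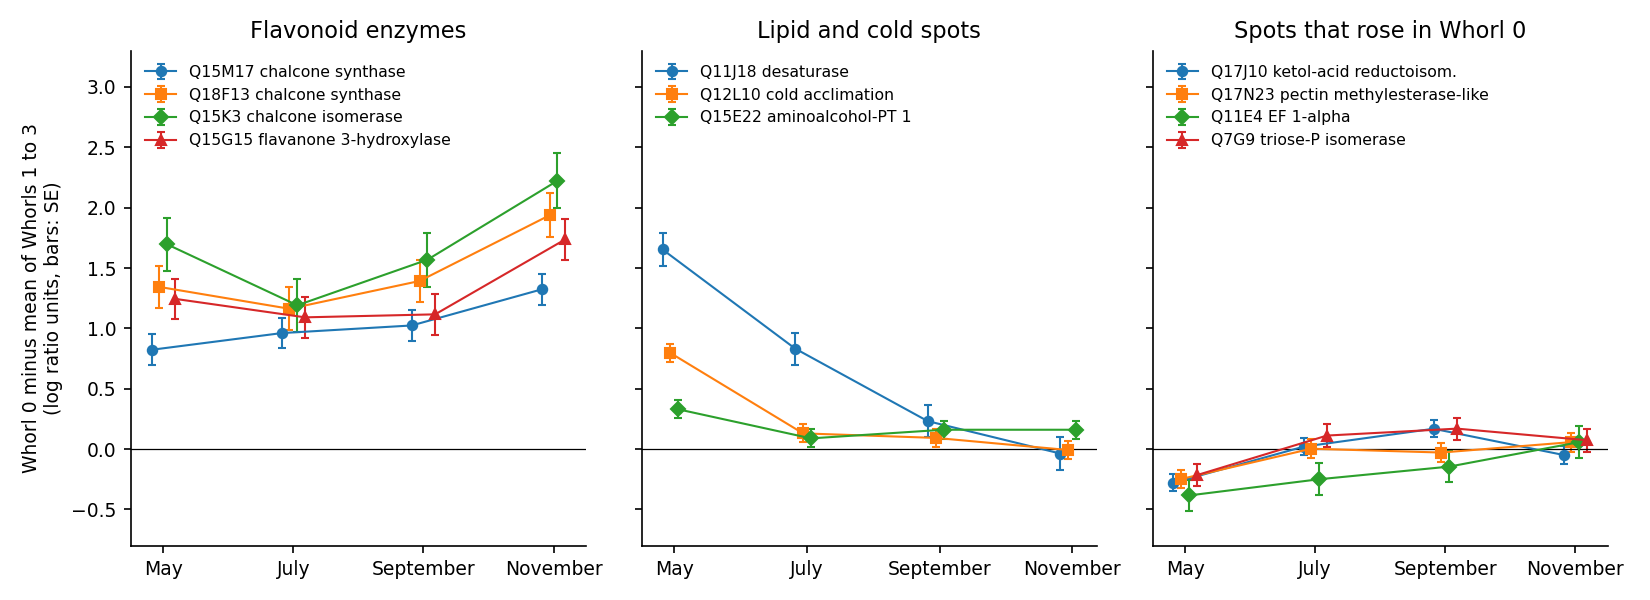
Difference between Whorl 0 and the mean of Whorls 1 to 3 (log ratio units, estimate and SE) in 4 months for flavonoid enzymes, for the lipid and cold spots, and for 4 spots that rose in Whorl 0. The flavonoid enzymes stay between 0.82 and 2.22, the desaturase falls from 1.65 in May to -0.04 in November, and the 4 spots on the right begin below 0 in May.

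Part of the array gave no step. Of the 895 spots not tested, 445 had a value on all 3 May arrays of Whorl 0 and on no July array, while 1 spot had the reverse. Of these 445, 134 had no value on any of the 9 July arrays of the older needles either, and 55 had one on at least 5 of them. The AP2 ERF protein (Q11C18) and the aspartic proteinase (Q16J12) were among the spots without a July value, with 0.24, 0.21 and 0.16 and with 0.09, 0.01 and -0.02 in May. A missing value does not tell whether the transcript was low or the spot was set aside.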

How the data were processed

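The authors hybridized needle RNA (Cy3) with a common January pool (Cy5) on a cDNA array, and deposited log ratios after normalization with BABAR. The base of the deposited logarithms is not given in the sources used here, and they were read as log2 throughout. The median of each of the 66 arrays was 0. The direction is likely and not certain, and rests on the dyes stated in the methods. In Whorls 1 to 3, 10 of 10 spots that the study lists by temperature had the listed sign. The study took those correlations from these same arrays. The match therefore shows only that the deposited values have the sign the study used, and not which dye was divided by which. Most samples' labels name another month for the reference; January follows the source names and the methods. The lowest correlation between any 2 of the 65 arrays used was -0.245. No precision can be had from counts, since the number of arrays limits it.

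The deposited values were fitted in R 4.3.3 by the linear models of limma 3.58.1, with moderated variances and a mean for each of 22 groups. The fit used 65 arrays, without replicate 2 of November Whorl 2, which the study's network omitted. Spots were tested where at least 2 arrays of every group compared had a value, and passed at a Benjamini-Hochberg adjusted p under 0.05 over all spots tested. For each spot the spread between the 3 pools of a group was taken over all 22 groups. The p-values therefore cover pools of the same 6 trees over all months and whorls. They do not measure the spread of the May and July pools of Whorl 0 alone. With only the 6 arrays of Whorl 0 from May and July, 2442 spots passed in Whorl 0, against 1904 in the main fit. The fit was tested on simulated data with 200 changed spots. Plots and summaries used Python 3.11.15, pandas 2.3.3, scipy 1.17.1 and matplotlib 3.10.9.

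The members, lists and tests were chosen with earlier results of these data known. Named spots are the 43 that the study describes and, for the step of Whorl 0 and the difference between the steps, the 2 largest and 2 smallest estimates that passed with a value on every array and no overlap between the May and July arrays of Whorl 0. The study's legend ties a replicate number to an individual and the same trees were always sampled, so the numbers were taken to pair the samples; deviations of same-numbered May and July arrays of Whorl 0 correlated at 0.202, -0.00258 and 0.1. Within a month, same-numbered arrays of different whorls deviated together in July (mean r 0.239, against -0.119 for other numbers) more than in May (0.0383 against -0.0186). Alternatives were other sets of arrays, other scalings, other filters, a fixed or random replicate block, and robust moderation.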

Additional observations from a re-analysis of the deposited data

Results flagged for a closer look

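The July minus May step differed between Whorl 0 and the mean of Whorls 1 to 3 at 1593 of 7031 spots (22.7%), tested as the difference itself. Of the 37 spots named by the study and tested, 7 were among them. The difference (Whorl 0 minus older needles) was 1.05 for geranylgeranyl diphosphate synthase (Q10C3), 0.30 for ketol-acid reductoisomerase (Q17J10), and 0.26 and 0.25 for the R2R3-Myb spots Q11F13 and Q16P17. It was -0.82 for the desaturase (Q11J18), -0.67 for the cold acclimation protein (Q12L10) and -0.48 for Q2I24, which has no description. Among the spots chosen by their estimates, it was 3.41 for Q8C21, 3.29 for Q7H1, 2.54 for Q1K19, -1.26 for Q8C5, -1.63 for Q2F2 and -1.73 for Q11L4. Groups of 3 arrays are too small to single out an array that stands apart from its replicates.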

How the results depend on the processing

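Of the 19 named spots that passed in Whorl 0, 11 kept their call under all 19 alternatives, and of the 13 that passed for the difference between the steps, 7 kept it under all 21. Both counts include spots that were chosen because they passed with large estimates. Of the 13 named by the study that passed in Whorl 0, only Q11J18, Q15E22, Q12L10, Q17J10 and Q2I24 kept their call. Of the 7 for the difference, only Q10C3, Q12L10 and Q2I24 did. No call of a named spot turned its direction. Quantile normalization left 930 spots in Whorl 0 (573 higher in July and 357 lower), 1057 for the difference (458 of them lower), and 237 and 206 in the classes of same and opposite direction. In Whorls 1 to 3 it left 874, 893 and 1054. Scaling the arrays to the same median absolute value left 1038 in Whorl 0 (690 and 348), the fewest of the whorls beside 1207, 1232 and 1353, and 283 in the class of same direction. Whorl 1 alone as the older needles, added after the data were seen, gave 860 differences (470 higher and 390 lower). The median distance between Whorl 0 and the older needles became 0.16 in May and 0.103 in November with quantile normalization, and 0.154 in May, 0.114 in July and 0.0986 in November with scaled arrays.

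With arrays or replicates left out, the counts ran from 1124 to 1678 in Whorl 0 (700 to 1005 higher, 424 to 673 lower), from 912 to 1403 for the difference (584 to 827 higher, 328 to 595 lower), from 738 to 1247 higher and 693 to 1003 lower, 1431 to 2250 in all, in Whorls 1 to 3, from 229 to 971 in Whorl 1, 256 to 929 in Whorl 2 and 475 to 1017 in Whorl 3. The lowest of each was without replicate 2 of every group. The spots that fell in Whorl 0 were 482 and 503 without replicate 1 or 3, and without replicate 3 there were 727 in Whorl 1 and 884 in Whorl 3. Without replicates 1, 2 and 3 in turn, the class of same direction held 344, 250 and 407 spots and that of opposite direction 241, 196 and 194, and the distance in November ran from 0.069 (without replicate 3) to 0.0896. The cause of these changes was not tested, beside the smaller number of arrays.

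With the replicate number as a block, 2028 spots passed in Whorl 0, 2686 in Whorls 1 to 3 and 1702 for the difference. Among named spots it changed the calls of Q10C3, Q19M11 and Q13B15 in Whorl 0 and of Q7G9 for the difference, and no other. With the pool within a month as a random block, 1937 passed in Whorl 0, 1807 in Whorls 1 to 3 (2543 without it), 1966 for the difference and 276 in the class of opposite direction, and it brought Q14J11, Q15E22, Q17N23 and Q7G9 past the threshold for the difference and Q14J11 in Whorl 0. The median estimate over all spots stayed within 0.0158 of 0 in these 3 comparisons under every alternative run.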
